A study of Mus musculus with 4 samples.

Results

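The genes of the Nodal pathway were examined in chromatin accessibility lists of differentiating mouse cells. The set held 8 genes chosen by name for their place in the pathway, Nodal, Lefty1, Lefty2, Tdgf1, Foxh1, Smad2, Smad3 and Acvr2b, of 21851 protein-coding genes. All 8 symbols were found in the annotation. For each gene the peaks within 1 kb (the promoter) and within 50 kb of a transcription start site (TSS) were collected, and 83 of 80380 accessible regions lay within 50 kb. The data are ATAC-seq peak lists, in which a transposase inserts adapters into open chromatin and stretches dense in insertions are called as peaks. The cells were embryoid bodies, aggregates in which E14Tg2A mouse embryonic stem cells form early lineages, on day 4 of differentiation. WT embryoid bodies (2 libraries) were compared with CTCF-K20R embryoid bodies (2 libraries), in which CRISPR/Cas9 had changed lysine 20 of the chromatin protein CTCF to arginine. Both had been maintained on mouse embryo fibroblasts with leukemia inhibitory factor and 2i inhibitors, and formed hanging drops in serum without the factor. According to the study's methods the replicates were biological ones from independent experiments. How many K20R clones the 2 libraries represent is not given in the sources used here.

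Nodal is a secreted signal of the TGF-beta family that forms the primitive streak and patterns mesoderm and endoderm, the tissues that embryoid bodies begin to make. It binds type I and type II activin receptors, of which Acvr2b is a type II receptor, together with the co-receptor Tdgf1 (Cripto). The receptors phosphorylate Smad2 and Smad3, which enter the nucleus with Smad4 and act on genes through partners such as the forkhead factor Foxh1. Nodal, Lefty1 and Lefty2 are themselves targets of this route, and the secreted Lefty proteins block Nodal signalling.

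The strength of a peak is given as its percentile by -log10 p within its own list, where 100 is the strongest peak. Regions were made by merging peaks of the 4 lists that shared at least 1 bp. A region was common when all 4 lists had a peak there, WT-restricted when both WT lists and neither K20R list had one, and K20R-restricted in the opposite case. List lengths were 59783 and 66703 peaks (WT) against 51823 and 55832 peaks (K20R), a mean difference of -14.9%. A shorter list lowers the percentile of a peak that stays strong, so promoters were also ranked anew among the 14494 genes with a promoter peak in all 4 lists, and common regions among the 38527 common regions. The lists hold 51.7% and 50.5% of their own peak numbers in WT against 58.6% and 60.8% in K20R. Called peaks had been taken out by a rule not given in the sources used here, a larger share of them from both WT lists. A region without a listed peak may therefore have had a called one, except where no number is missing between its neighbours in the list. Every list had promoter peaks at 4 of 4 early mesoderm and streak genes and at 4 of 4 pluripotency genes. Promoter peaks at fibroblast genes, the type of the feeder cells, were present at 4, 4, 3 and 4 of 5 genes in WT replicates 1 and 2 and K20R replicates 1 and 2, with Col3a1 in none, and their part in the results was not tested. In such bulk material, fewer cells of a type and less open chromatin per cell cannot be told apart.

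The sequences below are 201 bp of the mm10 genome around the strongest summit of 9 regions, on the plus strand. The first 6 were picked from the regions that hold a FOXH1, T-box, TCF-LEF or CTCF motif. The last 3 were picked from the regions restricted to a genotype whose windows hold no exon. Other regions of both kinds are not printed. Capitals mark the motif on either strand, and each of the first 6 windows holds 1 motif. The FOXH1 motif was AATCCACA or AATACACA, the T-box motif TCACACCT, the TCF-LEF motif CTTTGAT, and the CTCF motif the core of its consensus.
Lefty1, 10.1 kb upstream, common, FOXH1 motif, chr1:180924870-180925070: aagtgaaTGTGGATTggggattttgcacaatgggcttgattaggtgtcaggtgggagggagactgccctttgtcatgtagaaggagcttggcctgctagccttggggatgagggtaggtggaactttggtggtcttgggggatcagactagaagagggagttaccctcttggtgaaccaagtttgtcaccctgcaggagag
Lefty1, 8.55 kb upstream, WT-restricted, T-box motif, chr1:180926373-180926573: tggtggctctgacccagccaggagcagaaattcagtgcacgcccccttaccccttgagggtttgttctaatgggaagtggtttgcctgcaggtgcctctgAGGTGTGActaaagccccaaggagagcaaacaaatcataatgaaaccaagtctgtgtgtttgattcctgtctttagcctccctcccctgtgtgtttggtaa
Foxh1, 26.1 kb upstream, WT-restricted, FOXH1 motif, chr15:76695972-76696172: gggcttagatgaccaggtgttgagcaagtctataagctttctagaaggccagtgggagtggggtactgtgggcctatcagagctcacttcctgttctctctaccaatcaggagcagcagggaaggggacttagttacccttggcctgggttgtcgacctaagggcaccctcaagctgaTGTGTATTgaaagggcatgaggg
Nodal, 23.1 kb upstream, common, TCF-LEF motif, chr10:61394794-61394994: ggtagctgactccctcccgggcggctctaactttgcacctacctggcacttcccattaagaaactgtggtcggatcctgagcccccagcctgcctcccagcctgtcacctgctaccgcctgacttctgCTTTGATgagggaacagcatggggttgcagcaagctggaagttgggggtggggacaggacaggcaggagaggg
Nodal, 18.4 kb upstream, common, CTCF motif, chr10:61399448-61399648: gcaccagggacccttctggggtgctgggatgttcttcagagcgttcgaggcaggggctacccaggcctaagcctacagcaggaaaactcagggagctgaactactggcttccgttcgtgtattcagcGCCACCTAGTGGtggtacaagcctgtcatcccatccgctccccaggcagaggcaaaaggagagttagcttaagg
Lefty2, 18.8 kb upstream, common, CTCF motif, chr1:180874167-180874367: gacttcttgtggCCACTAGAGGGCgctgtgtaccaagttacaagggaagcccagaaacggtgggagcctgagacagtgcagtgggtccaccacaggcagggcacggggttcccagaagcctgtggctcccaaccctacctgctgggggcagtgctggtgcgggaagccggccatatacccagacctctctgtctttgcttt
Smad3, 7.28 kb downstream, WT-restricted, no motif, chr9:63750619-63750819: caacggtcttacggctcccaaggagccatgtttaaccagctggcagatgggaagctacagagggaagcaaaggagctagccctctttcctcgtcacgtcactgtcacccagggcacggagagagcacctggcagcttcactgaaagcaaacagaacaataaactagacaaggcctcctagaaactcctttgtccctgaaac
Acvr2b, 23.0 kb downstream, WT-restricted, no motif, chr9:119425355-119425555: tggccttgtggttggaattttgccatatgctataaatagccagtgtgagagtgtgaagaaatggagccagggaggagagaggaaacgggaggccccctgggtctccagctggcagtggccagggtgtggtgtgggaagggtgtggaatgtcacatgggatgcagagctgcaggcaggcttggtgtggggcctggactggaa
Tdgf1, 19.1 kb upstream, K20R-restricted, no motif, chr9:110965132-110965332: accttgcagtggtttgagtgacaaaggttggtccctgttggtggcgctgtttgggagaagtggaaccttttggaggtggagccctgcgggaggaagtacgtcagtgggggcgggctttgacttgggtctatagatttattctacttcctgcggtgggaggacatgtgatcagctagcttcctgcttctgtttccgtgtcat

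To ask whether the promoters of the pathway were as open in K20R as in WT cells, the strongest promoter peak of each gene was compared between the lists. All 8 genes had a peak with at least 1 base within 1 kb of a TSS in all 4 lists, the meaning of promoter peak here. At Lefty2 this region began 856 bp downstream of the TSS. With the summit itself required within 1 kb, Lefty1, Lefty2 and Tdgf1 lacked such a peak in at least 1 list. In 4 of the 8, Nodal, Tdgf1, Smad3 and Acvr2b, both K20R percentiles lay below both WT percentiles, and in 0 of the 8 both lay above. Over all 14494 promoters the same pattern held for 32.2% in the lower and 15.8% in the higher direction. Ranked anew, 3 of the 8 (Tdgf1, Smad3 and Acvr2b) were lower and 1 (Lefty1) was higher, against 23.0% and 23.9% of all promoters. The median difference (K20R minus WT) over the 8 promoters was -3.92 points against -0.826 points over all promoters, and -8.80 against 0.0655 points when ranked anew. These medians include Foxh1, at -17.7 and -26.1 points, whose WT replicate 2 value belongs to a peak of the neighbouring gene Ppp1r16a. Without Foxh1 the middle value was that of Nodal, at -3.30 points and at -2.68 points when ranked anew. Ranked anew, Tdgf1, Smad3, Acvr2b and Smad2 stood at -21.7, -21.2, -14.9 and -0.804 points, and Lefty2 and Lefty1 at 3.37 and 8.91. With 2 libraries against 2, the smallest p of the exact two-sided permutation test is 0.333, so no single gene can pass a threshold of 0.05.

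**Figure D1:**
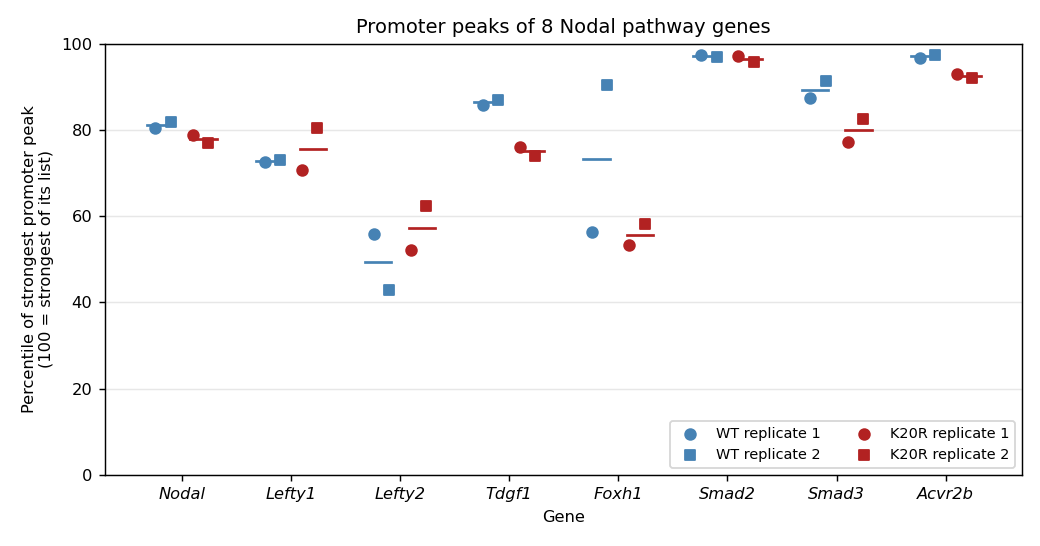
Percentile of the strongest promoter peak of each gene (y axis) in each library (points), with the mean of each genotype as a line. Nodal, Tdgf1, Smad3 and Acvr2b have both K20R points below both WT points, and the single Foxh1 point at 90.5 in WT replicate 2 is a peak of the neighbouring Ppp1r16a promoter.

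Nodal, the ligand, lies at chr10:61417972-61425338 on the plus strand. Its promoter peak, with a summit in the 5' UTR, stood at percentiles 80.6 and 81.8 in WT against 78.9 and 76.9 in K20R. The groups did not overlap, but the gap between them was narrower than that between the K20R replicates. The means were 81.2 ± 0.904 and 77.9 ± 1.42 (SD, n = 2), a difference of -3.30 points (exact permutation p = 0.333). Ranked anew the 4 values overlapped, at 34.3 and 34.6 in WT against 35.2 and 28.4 in K20R. The summit pileup recovered from fold and p, on a log2 scale relative to the library median, was 1.12 and 1.11 in WT against 1.17 and 1.12 in K20R, so on that scale the Nodal promoter was not lower.

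Around Nodal the larger differences lay outside the promoter. A common region 7.56 kb upstream (chr10:61409561-61410463, intergenic) stood at percentiles 42.6 and 34.6 in WT against 12.3 and 7.87 in K20R. This was the lowest relative to WT of the 10 common regions of the locus, at -28.5 points, and its fold enrichment was 3.00 and 2.98 in WT against 2.26 and 2.19 in K20R. A second, 23.1 kb upstream (chr10:61394323-61395231), whose TCF-LEF motif is printed above, stood at 85.3 and 93.5 in WT against 67.7 and 77.0 in K20R. In the opposite direction, a region over a coding exon of Nodal itself, 5.51 kb downstream of the TSS (chr10:61423161-61423700), stood at 43.8 and 36.1 in WT against 66.4 and 60.8 in K20R, a difference of 23.6 points. The region 18.4 kb upstream with the CTCF motif (chr10:61399326-61399832) stood at 56.3 and 36.0 in WT against 57.4 and 64.9 in K20R, so that K20R replicate 1 was close to WT replicate 1. These 4 regions kept their direction when ranked anew. Just past the 3' end of the gene, 8.68 kb downstream of the TSS, a peak was listed at 52.3 and 55.3 in WT, at 15.1 in K20R replicate 2 and not in K20R replicate 1. A region 22.5 kb downstream in an intron of Eif4ebp2 had the same pattern, at 39.1 and 31.4 in WT and 10.1 in K20R replicate 2 alone. The strongest common region outside the promoter, at the start of Eif4ebp2 35.0 kb downstream, stood at 90.9, 91.1, 86.2 and 89.4. Of the 15 regions near Nodal none was restricted to a genotype, and the lists held 12 and 14 peaks there in WT and 11 and 13 in K20R. In the surroundings, from 50 kb to 1 Mb from the Nodal TSS, 68 common regions had a median difference of 0.918 points when ranked anew.

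Lefty1 and Lefty2, the secreted inhibitors, lie side by side on chromosome 1 (chr1:180935022-180938400 and chr1:180893108-180899103, both on the plus strand), so that their windows share regions. The Lefty1 promoter peak, with its summit about 1.13 kb upstream of the TSS, stood at 72.7 and 73.1 in WT against 70.7 and 80.6 in K20R. The Lefty2 promoter peak, with its summit in an intron of Lefty2 1.35 kb downstream of the TSS, stood at 56.0 and 42.9 in WT against 52.2 and 62.3 in K20R. The genotypes overlapped in both (exact permutation p = 1.00 and 0.667), and for both genes K20R replicate 2 was the highest of the 4. Ranked anew, the Lefty1 values were 20.2 and 19.3 in WT against 21.2 and 36.1 in K20R, which placed K20R replicate 1 above WT replicate 1 by less than the spread between the K20R replicates.

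Upstream of Lefty1, 2 neighbouring regions differed in the K20R lists. The region 10.1 kb upstream with the FOXH1 motif (chr1:180924501-180925636) was the strongest common region of the gene outside its promoter, at 93.6 and 90.9 in WT against 83.2 and 89.3 in K20R. It did not overlap between genotypes, but did so when ranked anew. The next region, 8.55 kb upstream with the T-box motif (chr1:180926160-180926679), was WT-restricted, at 49.2 and 55.5 in WT with summit folds of 3.18 and 3.73. No peak number is missing at this place from either K20R list, so no peak had been called there in K20R. Inside the gene, in an intron 1.90 kb downstream of the TSS (chr1:180936475-180937225), a common region stood at 59.0 and 57.8 in WT against 18.1 and 48.9 in K20R. Its difference of -24.9 points was the lowest among the common regions of Lefty1, and most of it came from K20R replicate 1. The sequence around its summit shares a nearly identical stretch with that around the Lefty2 promoter peak. Whether this affected the placing of reads at either region was not tested. A further common region, 10.8 kb downstream in an intron of Tmem63a (chr1:180945263-180945951), stood at 76.1 and 70.2 in WT against 62.1 and 55.2 in K20R. A weaker WT-restricted region lay 17.7 kb downstream in another intron of Tmem63a (chr1:180952308-180952740), at 19.3 and 17.5. The opposite direction was seen 45.6 kb downstream (chr1:180980151-180981017), where the percentiles were 19.2 and 24.9 in WT against 34.3 and 49.5 in K20R.

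Upstream of Lefty2 the pattern was mixed, with neighbouring regions in opposite directions. The region 4.33 kb upstream (chr1:180888199-180890672) stood at 78.9 and 82.1 in WT against 92.5 and 94.4 in K20R, with summit pileups of 73 and 117 against 128 and 207. It holds a FOXH1 motif within 250 bp of its summit, though not within 100 bp, and it was 12.9 points higher in K20R. The region 18.8 kb upstream with the CTCF motif (chr1:180873893-180874535) stood at 74.0 and 82.4 in WT against 86.1 and 89.3 in K20R. Between these, 9.27 kb upstream, lay a WT-restricted region (chr1:180883275-180884230) at 63.4 and 65.4 in WT. There no peak number is missing from K20R replicate 1, but 1 is missing from K20R replicate 2. The lowest region relative to WT was 44.8 kb upstream (chr1:180847980-180848773), at 47.5 and 56.4 in WT against 36.3 and 12.2 in K20R. The strongest common region of the locus was the Sde2 promoter 42.2 kb upstream, at 98.7, 94.0, 98.0 and 96.1, where the genotypes overlapped. Within 50 kb the lists held 17 and 16 peaks (WT) and 11 and 14 peaks (K20R) for Lefty1, and 18 and 16 against 12 and 14 for Lefty2. Both genes thus had fewer listed peaks in each K20R list than in either WT list, and the common regions between 50 kb and 1 Mb away had medians of -0.533 (61 regions) and -0.710 points (60 regions) when ranked anew.

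**Figure D2:**
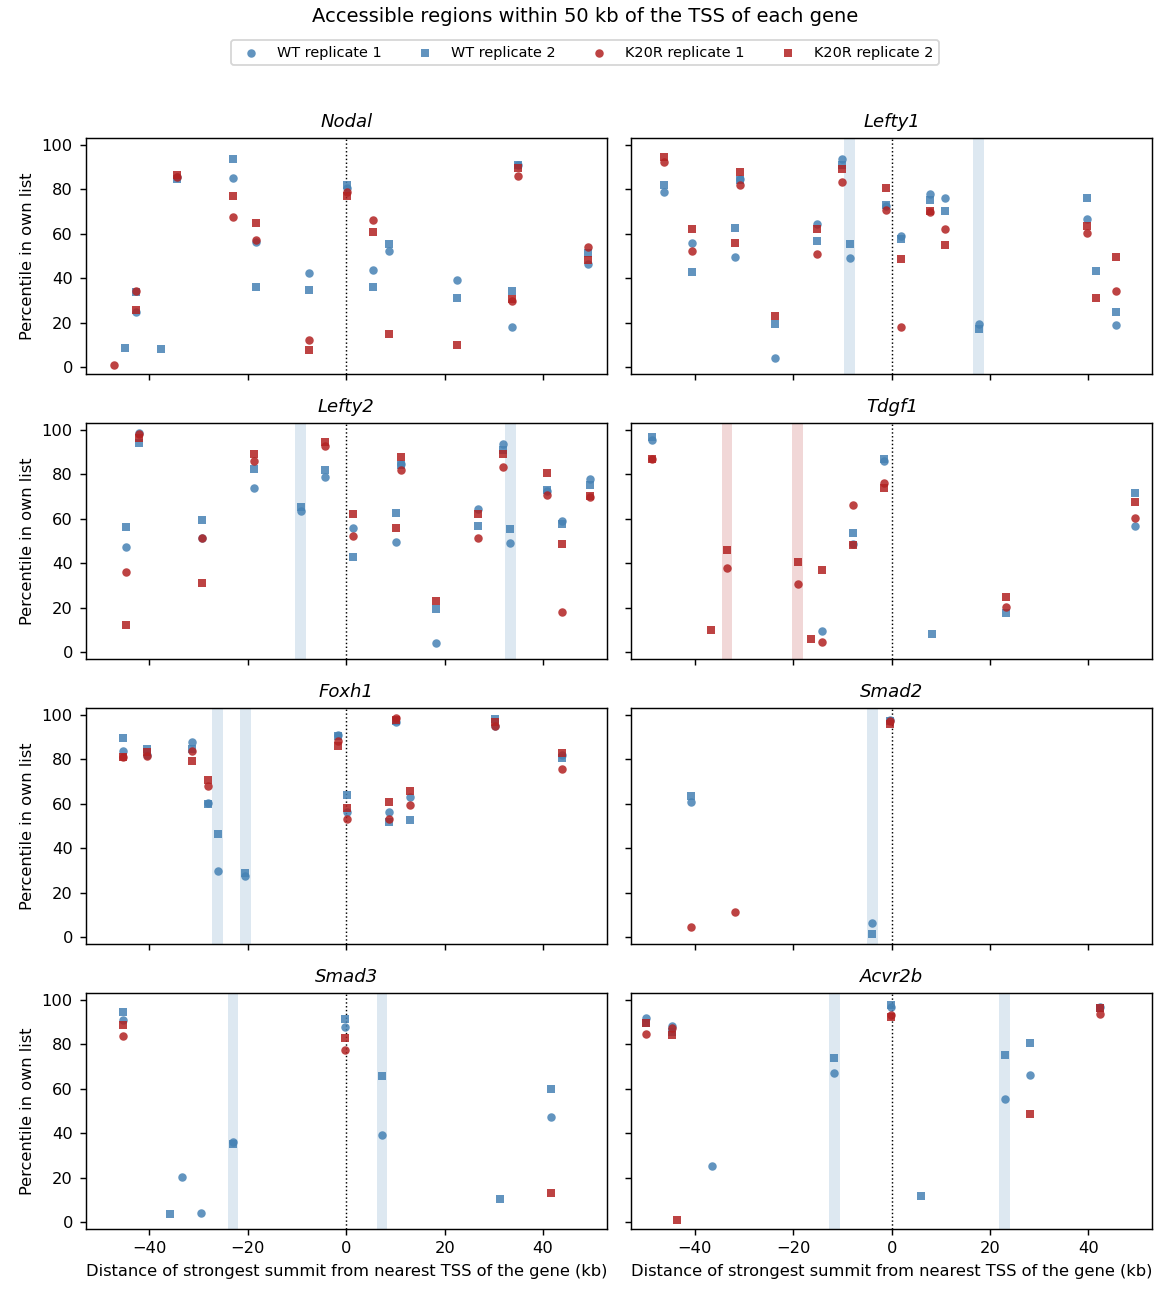
Percentile in its own list (y axis) of every accessible region within 50 kb of a TSS of each gene, by the distance of its strongest summit from the nearest TSS of the gene in kb (negative is upstream), with WT libraries in blue and K20R libraries in red. Blue and red bands mark WT-restricted and K20R-restricted regions: the 2 red bands are both upstream of Tdgf1.

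Tdgf1, the co-receptor (chr9:110939603-110946158, minus strand), had the largest promoter difference of the 4 genes whose groups did not overlap. Its promoter peak stood at 85.9 and 87.1 in WT against 76.2 and 74.0 in K20R. The means were 86.5 ± 0.843 and 75.1 ± 1.56 (SD, n = 2), a difference of -11.4 points (exact permutation p = 0.333), and ranked anew the values were 48.1 and 48.8 against 30.2 and 23.3. The peak was equally wide in both genotypes, at 2270 and 2351 bp in WT against 2238 and 2357 bp in K20R, but the position of its summit differed. The strongest position lay 1495 and 1498 bp upstream of the TSS in WT, against 662 and 706 bp upstream in K20R. The recovered pileup relative to the library median was 1.51 and 1.56 in WT against 1.00 and 1.02 in K20R on the log2 scale, while the summit fold was 5.23 and 5.76 against 5.18 and 5.24 and so overlapped.

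Tdgf1 was also the only one of the 8 genes with more listed peaks in K20R, with 9 and 10 within 50 kb against 5 and 7 in WT. Both K20R-restricted regions of the set lay upstream of it in introns of Lrrc2. The first, 19.1 kb upstream (chr9:110964909-110965685), stood at 30.8 and 40.4 in K20R, and the second, 33.5 kb upstream (chr9:110979456-110979918), at 38.1 and 46.0. No peak number is missing at either place from WT replicate 1, but 3 are missing from WT replicate 2, so a called and removed peak remains possible in that library. Another region in Lrrc2, 14.2 kb upstream, was listed at 9.37 in WT replicate 1, at 4.73 and 37.1 in K20R and not in WT replicate 2. Its deposited -log10 q was 1.82 in WT replicate 1 and 1.24 and 10.7 in K20R. In contrast, the strongest common region outside the promoter, 48.7 kb upstream in an intron of Gm10030 (chr9:110994691-110995200), stood at 95.3 and 96.9 in WT against 87.1 and 87.1 in K20R. The 51 common regions from 50 kb to 1 Mb away had a median difference of -0.613 points when ranked anew.

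Acvr2b, the type II receptor (chr9:119402118-119434995, plus strand), had one of the strongest promoter peaks of the set. It stood at 96.7 and 97.5 in WT against 93.0 and 92.1 in K20R. The difference of the means, 97.1 ± 0.577 and 92.5 ± 0.689 (SD, n = 2), was -4.54 points (exact permutation p = 0.333). Among promoters alone the values were 85.6 and 88.1 in WT against 74.4 and 69.5 in K20R. Of the 10 WT-restricted regions the 2 strongest lay here. One, 11.7 kb upstream in an intron of Xylb (chr9:119390072-119390834), stood at 66.9 and 73.6, and the other, in an intron of Acvr2b 23.0 kb downstream of a TSS (chr9:119425211-119425827), at 55.4 and 74.9. At the first 2 and 3 peak numbers are missing from the K20R lists and at the second 3 and 3, so removed peaks remain possible. A nearby intronic region with a CTCF motif, 28.0 kb downstream (chr9:119429714-119430577), stood at 66.1 and 80.5 in WT and 48.5 in K20R replicate 2, with no listed peak in K20R replicate 1. The strongest common region outside the promoter, at the start of Exog, stood at 96.5, 96.3, 93.6 and 96.4, and there the genotypes overlapped. The lists held 9 and 8 peaks within 50 kb in WT and 5 and 6 in K20R.

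Smad2 and Smad3, the receptor-activated transducers, differed from each other. The Smad2 promoter peak (gene at chr18:76241580-76310963, plus strand) was by its mean the strongest of the set, at 97.4 and 97.0 in WT against 97.3 and 95.9 in K20R. The genotypes overlapped, with a difference of -0.609 points (exact permutation p = 0.667). The Smad3 promoter peak (gene at chr9:63646767-63757994, minus strand) stood at 87.5 and 91.4 in WT against 77.3 and 82.6 in K20R. The means were 89.4 ± 2.76 and 80.0 ± 3.78 (SD, n = 2), a difference of -9.46 points (exact permutation p = 0.333), and ranked anew the values were 52.4 and 63.0 against 32.0 and 40.9. Its summit fold was 6.99 and 8.85 in WT against 6.03 and 7.51 in K20R, so that the folds of the genotypes overlapped.

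Smad3 also had the largest deficit of listed peaks in K20R, with 7 and 8 within 50 kb in WT and 3 and 3 in K20R. In the intron of Smad3 7.28 kb downstream of the TSS, the WT-restricted region whose sequence is printed above (chr9:63750159-63751186) stood at 39.3 and 65.5, with folds of 3.79 and 7.40. No peak number is missing there from either K20R list, so no peak had been called. A second WT-restricted region, 23.0 kb upstream (chr9:63780389-63781218), stood at 35.9 and 35.3, with 1 number missing from each K20R list. Deeper in the gene, 41.7 kb downstream (chr9:63716115-63716622), a region stood at 47.1 and 59.6 in WT and 13.2 in K20R replicate 2, and was not listed in K20R replicate 1, where no number is missing. The only common region besides the promoter, 45.4 kb upstream (chr9:63803131-63804014), stood at 91.0 and 94.6 in WT against 83.8 and 88.8 in K20R. The surroundings of Smad3, 54 common regions from 50 kb to 1 Mb away, had a median of -2.21 points when ranked anew, with 17 lower and 11 higher. Smad2 had only 4 regions within 50 kb. Besides the promoter, an intronic WT-restricted region (chr18:76256810-76257616) stood at 6.36 and 1.40 in WT, with a deposited -log10 q of only 1.39 and 1.06. Another region was listed only in K20R replicate 1, at 11.2. The last, 40.9 kb upstream (chr18:76200230-76201291), stood at 60.8 and 63.4 in WT. There K20R replicate 1 had a peak at 4.62, with a -log10 q of only 1.21, and K20R replicate 2 had no listed peak.

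Foxh1, the forkhead partner of the Smad proteins (chr15:76668225-76669948, minus strand), sits in a gene-dense stretch. By the strongest peak within 1 kb, its values were 56.4 and 90.5 in WT against 53.3 and 58.2 in K20R. The value of WT replicate 2 belongs to a peak with its summit 1658 bp upstream, at the start of the neighbouring gene Ppp1r16a, whose edge falls just inside the window in that list alone. The region over the Foxh1 start itself (chr15:76666626-76670297) stood at 56.4 and 63.7 in WT against 53.3 and 58.2 in K20R, so the genotypes overlapped. Upstream, 2 WT-restricted regions were weak to moderate. One, 26.1 kb upstream with the FOXH1 motif (chr15:76695944-76696267), stood at 29.6 and 46.2, and the other, 20.5 kb upstream in a 5' UTR exon of Ppp1r16a (chr15:76690148-76690587), at 27.7 and 28.8. At both, 1 peak number is missing from each K20R list. A common region over a coding exon of Gpt 28.1 kb upstream (chr15:76697512-76698479) stood at 60.3 and 59.9 in WT against 67.9 and 70.6 in K20R. The Kifc2 promoter 10.1 kb downstream, the strongest common region outside the promoter, stood at 96.6 and 97.3 in WT against 98.4 and 97.6 in K20R. The lowest common region relative to WT, 45.5 kb upstream over a coding exon of Lrrc24 (chr15:76715008-76716210), stood at 83.8 and 89.7 in WT against 80.9 and 80.9 in K20R. The mean differences of the 11 common regions at this locus thus ran from -5.80 to 9.18 points.

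Across the 8 genes, 73 and 76 peaks were listed within 50 kb in WT, against 58 and 63 in K20R. The means were 74.5 ± 2.12 and 60.5 ± 3.54 (SD, n = 2), a difference of -14.0 peaks. This is -18.8%, beside -14.9% for the whole lists. Per gene, the number of regions ran from 4 at Smad2 to 16 at Lefty1 and Lefty2, against a median of 6 (quartiles 2 and 10) over all protein-coding genes. Of the 83 regions, 47 (56.6%) were common, against 47.9% of all regions. WT-restricted regions made up 10 of the 83, or 12.0% (95% Wilson interval 6.68 to 20.8), against 10.4% of all regions. K20R-restricted regions made up 2 of the 83, or 2.41% (0.663 to 8.37), against 3.10%. Both shares were near those of the whole lists. At 2 of the 10 WT-restricted regions, those 8.55 kb upstream of Lefty1 and 7.28 kb inside Smad3, no number is missing from either K20R list, and this holds for 0 of the 2 K20R-restricted regions and the WT lists. WT-restricted regions lay between percentiles 1.40 and 74.9 and common regions between 7.87 and 98.7, with medians of the mean percentile of 45.1 and 80.3. The weakest WT-restricted region, in an intron of Smad2, had a deposited -log10 q of only 1.39 and 1.06 in WT. Of the other 24 regions, 6 had a peak in all lists but K20R replicate 1, and 1 region each lacked a peak only in WT replicate 1, WT replicate 2 or K20R replicate 2.

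Among the 47 common regions, 20 had both K20R percentiles below both WT percentiles, against 34.8% of all common regions, and 8 had both above, against 18.6%. Ranked anew, 13 were lower (25.5% of all) and 15 higher (29.2% of all). The median difference was -1.38 points near the 8 genes and -1.52 points over all common regions, and 0.152 against 0.606 points when ranked anew. Taken by gene, Nodal, Lefty1, Lefty2 and Foxh1 had regions in both directions, while those of Tdgf1, Smad3 and Acvr2b that did not overlap were all lower in K20R. Ranked anew, this remained so, with 2 lower regions at Tdgf1, 2 at Smad3 and 1 at Acvr2b and no higher ones. These counts include the promoter region of each gene, already described, which at Acvr2b was the only lower one.

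**Figure D3:**
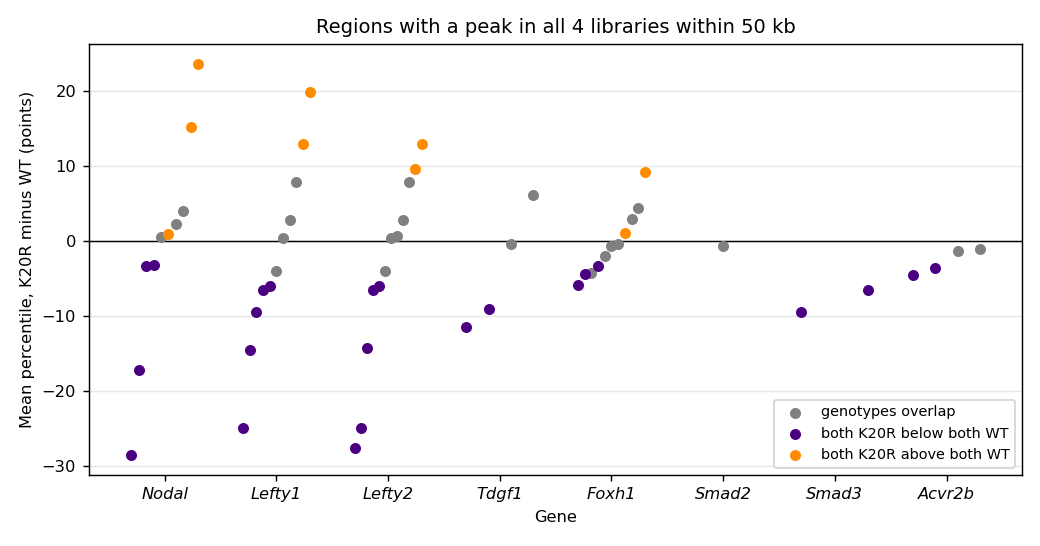
Difference of mean percentiles, K20R minus WT in points (y axis), of each common region within 50 kb of a gene, 1 point a region, with regions shared by Lefty1 and Lefty2 drawn for both. Differences run from -28.5 to 23.6 at Nodal, whereas the 2 common regions of Smad3 are both lower in K20R.

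Motifs were counted within 100 bp of the strongest summit of each region, on both strands. The FOXH1 motif was found in 2 of the 83 regions (2.41%), 10.1 kb upstream of Lefty1 and 26.1 kb upstream of Foxh1, against 1.38% of all regions. The palindromic SMAD motif GTCTAGAC was in 0 of the 83, against 0.170% of all regions, and no match says only that these letters are not in the window. The T-box motif was in 2 (1.25% of all regions), the OCT motif ATGCAAAT in 2 (1.83%) and the TCF-LEF motif in 2 (2.68%). The CTCF motif was in 5 of the 83 (6.02%), against 5.97%. Of these 5, the 2 common ones, upstream of Nodal and of Lefty2, both stood higher in both K20R lists. The other 3 lacked a peak in 1 or 2 lists, namely the intronic Acvr2b region, a region 41.5 kb downstream of Lefty1 listed at 43.3 in WT replicate 2 and 31.1 in K20R replicate 2, and a region 23.2 kb downstream of Tdgf1 listed at 17.5 in WT replicate 2 and 20.4 and 24.7 in K20R. Of the 2 T-box regions 1 was the Nodal promoter and the other the WT-restricted region upstream of Lefty1. A motif match is a description and does not show that the factor was bound.

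The promoters of 23 further genes of the pathway, made up of receptors, co-receptor, co-ligands, convertases, inhibitors, a transducer and targets, were examined in the same way. A promoter peak was present in all 4 lists for 22 of them and in none for Cer1, a secreted Nodal inhibitor. Both K20R percentiles lay below both WT percentiles in 10 and above in 5, and ranked anew in 7 and 6. Shares over all promoters are those given above. The largest lower differences when ranked anew were those of the target Foxa2, the co-receptor Cfc1, the inhibitors Pmepa1 and Ski, and the receptor Acvr1c. Foxa2, a forkhead factor of endoderm and node, stood at percentiles 96.7 and 97.1 in WT against 81.1 and 78.9 in K20R. Cfc1 (Cryptic), the relative of Tdgf1, stood at 98.8 and 95.4 in WT against 86.3 and 86.0 in K20R. Its summit lay 1284 and 1282 bp downstream of the TSS in WT against 1396 and 1396 bp in K20R. In both promoters the gap between the genotypes was wider than that between replicates. By summit fold Foxa2 was also lower in both K20R lists (6.94 and 7.28 in WT against 5.40 and 5.58), but Cfc1 was higher (8.66 and 7.61 in WT against 9.28 and 10.4). Pmepa1, which keeps Smad proteins from the receptor, stood at 90.6 and 91.1 against 79.9 and 82.5. Ski, a Smad corepressor, stood at 95.5 and 94.7 against 88.4 and 88.7. Acvr1c (ALK7), a type I receptor, stood at 86.8 and 87.4 against 73.2 and 83.8, so that K20R replicate 1 was the lower of the K20R lists. The summit folds of Pmepa1, Ski and Acvr1c overlapped between the genotypes.

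In the higher direction the co-ligand Gdf1 stood at 80.6 and 89.2 in WT against 90.5 and 94.6 in K20R, and the inhibitor Dand5 at 72.4 and 77.0 in WT against 77.7 and 80.7 in K20R. Both lie on chromosome 8 in stretches where most regions stood higher in K20R. From 50 kb to 1 Mb around Gdf1, 73 of 101 common regions were higher when ranked anew, and around Dand5 85 of 114, with medians of 8.37 and 11.4 points. Around the 8 genes of the set these medians lay between -2.21 (Smad3) and 2.92 points (Smad2). The convertase Furin stood at 55.1 and 54.9 in WT against 70.8 and 59.0 in K20R and the target Eomes at 72.8 and 65.8 against 75.5 and 74.1. The inhibitor Smad7 stood at 86.7 and 89.4 against 87.2 and 92.0, where the genotypes overlapped before ranking anew. The 5 target genes thus split into 3 lower (Foxa2, Lhx1 and Mixl1) and 2 higher (Eomes and Gsc).

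**Figure D4:**
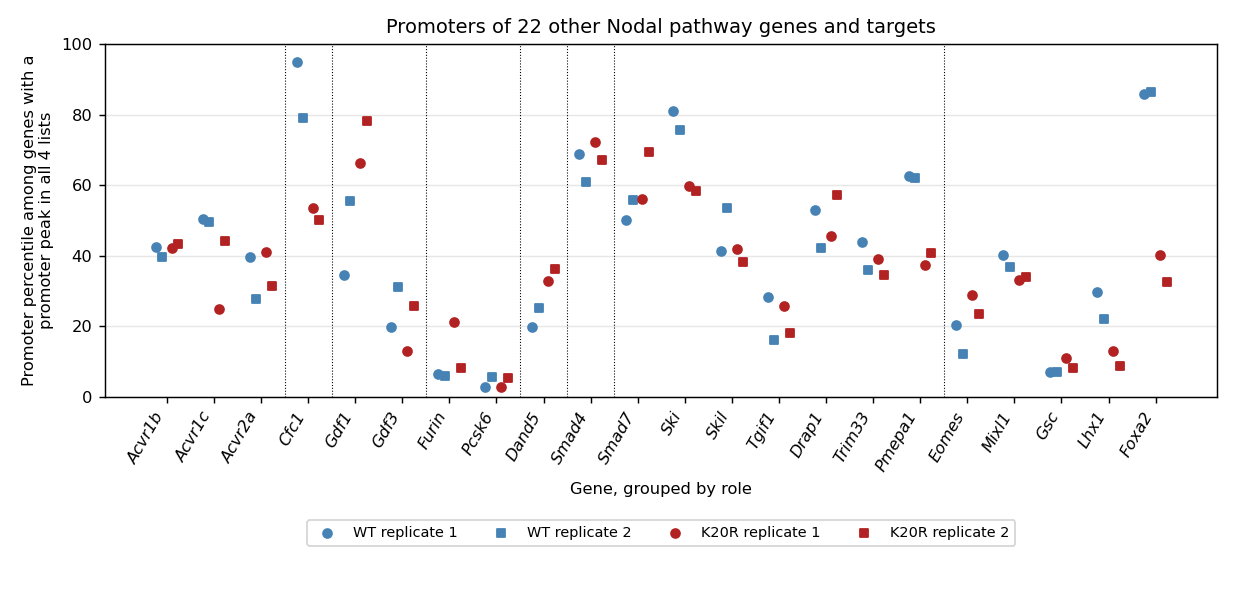
Promoter percentile among the genes with a promoter peak in all 4 lists (y axis) of 22 other pathway genes in each library (points), with dotted lines between roles. Foxa2 stands at 85.7 and 86.5 in WT against 40.1 and 32.4 in K20R, while Gdf1 stands at 34.5 and 55.4 in WT against 66.2 and 78.3 in K20R.

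The 3 genes whose promoter percentiles were most like those of Nodal, by the largest difference in any of the 4 lists among 14486 other genes, were Dirc2 and Hspbap1, which share 1 promoter peak (largest difference 0.884 points), and Bzw1 (0.913 points). The Dirc2 and Hspbap1 values were 80.6 and 81.5 in WT against 78.0 and 77.7 in K20R.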

How the data were processed

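ATAC-seq peak lists from day 4 embryoid bodies (2 WT and 2 CTCF-K20R libraries) were analysed, with genotype and replicate number from the sample labels. According to the study's methods and the submitters' processing notes, adapters were trimmed with Trim Galore, reads were placed on mm10 with Bowtie2, reads of low mapping quality and duplicates were removed, and peaks were called with MACS2. Each library has its own list. The deposited score was not used here. The authors' ratio, from MACS2, relates the summit to its local background (fold enrichment). The −log10 p and −log10 q deposited with each peak also refer to its summit. The lists reach down to a −log10 p of 2.00 in both WT lists and 2.02 in both K20R lists. No q threshold was set in the main analysis, so weak peaks were counted as well. Reads were not used here, so no differential test on counts was made and read depth is unknown. The local background level at each listed peak was recovered from fold and p. Its 1st percentile, near the lowest values, was 2.76 and 2.71 reads in WT and 3.19 and 3.01 in K20R.

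Peaks were ranked by −log10 p within each list and expressed as percentiles. Start sites were those of protein-coding transcripts in the GENCODE vM21 basic annotation on the 21 chromosomes the lists name, and sequences were read from GRCm38 (mm10) of RefSeq. The summit pileup was solved for from the fold, taken as a ratio of pileup to background after adding 1 to each, and the Poisson tail that gives p. Whole values (within 0.01) resulted for 100.00% of peaks in each list when rounded. Genotypes were compared by whether the 2 K20R values lay on one side of both WT values, read against the share of all promoters or regions with that pattern, and by the exact two-sided permutation test. Shares have Wilson 95% intervals, which cover counting error only. The scripts were tested on simulated lists. Tools were Python 3.11.15, numpy 2.4.6, pandas 2.3.3 and scipy 1.17.1.

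The 8 genes, the 23 further pathway genes, the motifs and the marker genes were chosen with earlier results of these data known, and 1 pathway gene is not reported here. Named were all 8 genes, every restricted region, each gene's strongest common region outside the promoter, its common regions with the largest difference in each direction, and up to 5 further genes per direction by the difference ranked anew. Other regions, the surroundings up to 1 Mb and the printed sequences of the Foxh1 region and of those with TCF-LEF and CTCF motifs were added after their values were seen. Alternatives were q thresholds, equal list lengths, other ranks, windows and start sites, a 50% overlap, leaving out each library and pairing by replicate number.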

Additional observations from a re-analysis of the deposited data

How the results depend on the processing

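Of 210 values under alternatives, 156 differed from the main value by less than the spread between replicates or, for counts, only slightly, 53 moved further, and 1 non-overlapping difference changed sign, that of the Nodal promoter, at 0.03 with the recovered pileup relative to the library median. Among promoters whose genotypes overlapped, the sign also changed for Lefty1 (-2.15 points) and Smad2 (0.0780) without K20R replicate 2, and for Smad2 by pileup (0.08). On the percentile scale the differences of Tdgf1, Smad3, Acvr2b, Foxh1 and Nodal were negative under all alternatives that gave a value, 12 for Tdgf1 and 13 for each other. They ran from -21.7 to -4.54 points for Tdgf1, -21.2 to -6.79 for Smad3 and -14.9 to -4.05 for Acvr2b. For Foxh1 they ran from -34.8 to -0.644 and for Nodal from -4.30 to -0.0878. With the summit required within 1 kb, Tdgf1, Lefty1 and Lefty2 gave no value, since not every list had such a peak. The genotypes of Foxh1 overlapped, and its extremes came without WT replicate 1 and without WT replicate 2, whose value belongs to the Ppp1r16a peak. The cause of the movements below was not tested. Promoters lower in K20R numbered 2 when ranked by fold. Promoters higher in K20R numbered 2 with equal list lengths, 1 when ranked anew and 3 by pileup. The difference in peaks within 50 kb was -4 at a −log10 q of at least 10, -5.50 with equal list lengths and -21.5 within 100 kb. WT-restricted regions numbered 4 at a −log10 q of at least 10, 20 within 100 kb and 2 where no peak number was missing (an alternative chosen after seeing the data). K20R-restricted regions numbered 1 at a −log10 q of at least 5 or 10, 5 with equal list lengths, 1 within 25 kb, 6 within 100 kb and 0 where no number was missing. Common regions lower in K20R numbered 9 at a −log10 q of at least 10, 12 with equal list lengths, 13 by fold, when ranked anew and by pileup, and 11 within 25 kb. Those higher numbered 4, 17, 8, 15, 16 and 5 in the same order, and 13 within 100 kb. The FOXH1 motif was in 1 region within 25 kb.

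Leaving out 1 library at a time, promoters lower numbered 5 to 6 and higher 0 to 2, the difference in peaks was -16.5 to -11.5, WT-restricted regions numbered 11 to 17 (17 without WT replicate 1, 16 without K20R replicate 2), K20R-restricted regions 3 to 5 (5 without K20R replicate 1), and common regions lower 25 to 29 and higher 11 to 15. With a replicate block, taking the libraries as pairs by number, 6 promoters were lower and 0 higher, and 24 common regions were lower and 8 higher. With fewer libraries or with pairs the criteria for lower, higher and restricted are easier to meet. These counts could therefore hardly fall below the main ones, and shares over all features under the relaxed criteria are not given. The differences in peaks were -15 and -13 in the pairs. Deviations of same-numbered libraries from their genotype mean correlated at 0.05 over 38527 common regions. Replicate 2 had the longer list in both genotypes, with 66703 against 59783 peaks in WT and 55832 against 51823 in K20R. Whether same-numbered libraries were handled together was not tested. Restricted regions and motifs were not counted under the block. Depth is unknown, and the lists cannot show regions whose called peak was taken out.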

Other observations

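Within 50 kb of the 23 further pathway genes lay 228 regions, of which 130 were common, 21 (9.21%) WT-restricted and 5 (2.19%) K20R-restricted, against 10.4% and 3.10% of all regions. Of the WT-restricted regions 5 lay at Smad7, a Smad inhibitor induced by the pathway that had the most regions of these genes (23), with 3 of the 5 in introns of the gene, at percentiles of 36.0 and 43.3, 24.6 and 5.72, and 13.2 and 0.655 in the WT lists. The type I receptor Acvr1b had 3, and Pmepa1 and Mixl1 had 2 each. The strongest was 40.6 kb downstream of the Foxa2 TSS (chr2:148004982-148005677), at 69.0 and 76.3 in WT. K20R-restricted regions lay over a coding exon of Foxa2 (chr2:148044001-148045187), at 13.9 and 26.4, and over a coding exon of Gsc (chr12:104471076-104472305), at 39.6 and 17.5. The latter begins right beside a WT-restricted region (chr12:104470773-104471065) at 9.69 and 15.6, so that both genotypes had a peak at this place. A further region 40.0 kb downstream of the Gsc TSS (chr12:104433062-104433939) stood at 55.6 and 57.1 in K20R. The Foxa2 locus thus held the strongest WT-restricted region of these genes, the lowest promoter relative to WT and a K20R-restricted region inside the gene. The Mixl1 regions, 6.60 and 17.4 kb upstream, stood at 42.4 and 48.1, and at 13.6 and 56.8 in WT. Whether peaks at these places were called and taken out of the other lists was not tested.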
